A study of Mus musculus with 9 samples.

Results

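The genes described here are the Wnt ligands with their receptors and transducers, as measured in the left ventricle of the pressure-overloaded mouse heart. They were chosen by name: every gene whose symbol starts with Wnt or Fzd and a digit, and a named set of co-receptors, R-spondins, secretion factors and intracellular transducers. Of 53 such genes in the reference gene table, 52 were measured, out of 18193 genes with a probe set of 1 gene symbol. Tcf7 had no such probe set and was not analysed here. The measured genes were represented by 109 probe sets, several for 37 genes and 1 for 15 genes. One of the 52, Fzd10os, is an RNA gene on the strand opposite Fzd10 that shares the prefix and was kept.

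The study compared male C57BL/6 mice 6 weeks after surgery: 4 arrays came from left ventricles after transaortic constriction (TAC) and 5 arrays from left ventricles after a sham operation. TAC narrows the aorta, so that the left ventricle ejects against a raised pressure, and the labels describe it as a model of heart failure. No transgene, drug or age is named, and both groups had undergone surgery. RNA was hybridized to Affymetrix mouse expression arrays, which give 1 value per probe set, here as log2 values made by the authors with RMA. Whether each array stands for a separate mouse is not stated outright in the labels. The p-values set the difference between groups against the spread of arrays within groups. They may therefore not extend to other mice.

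Wnts are secreted lipid-modified proteins that bind Frizzled receptors on the cell surface. In the beta-catenin branch, Frizzled acts with Lrp5 or Lrp6 and, through Dishevelled, stops a destruction complex built on Axin and Apc from degrading beta-catenin, which then enters the nucleus and works with TCF/LEF factors on target genes. Other branches run through Ror and Ryk receptors, planar polarity proteins or calcium. In the heart the pathway is known from development of valves and chambers, and in the adult from fibroblasts and the response to injury.

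Heart muscle was borne out by its defining markers, 8 cardiomyocyte genes, with 1 of 8 lower. Their mean was 13.99 to 14.00 in TAC arrays and 14.04 to 14.07 in sham arrays on the log2 scale. Whether these genes tell ventricle from atrium was not tested. The mean of 8 fibroblast markers was 11.57 to 11.91 in TAC arrays against 10.61 to 11.01 in sham arrays, with 6 of 8 higher, and that of 8 macrophage markers was 9.63 to 9.78 in TAC arrays against 8.52 to 9.09 in sham arrays (8.93 to 9.09 without sham array 2), with 7 of 8 higher. The mean of 8 endothelial markers, 10.17 to 10.39 in TAC arrays and 10.13 to 10.53 in sham arrays, overlapped between the groups, with 1 of 8 lower; without sham array 2 the sham range was 10.34 to 10.53. The mean of 4 Schwann cell markers was 6.20 to 6.45 in TAC arrays against 6.69 to 7.03 in sham arrays, with 1 of 4 lower. Of 8 smooth muscle and pericyte markers 2 were higher and 3 lower, of 4 atrial myocyte markers 2 were higher, and of the T and B cell, adipocyte, and mesothelial and epicardial markers none passed. In bulk tissue, more or fewer cells of a type and more or less RNA per cell cannot be told apart, and the part of these markers in the differences below was not tested. Sham array 2 stood apart from its group, with correlations of 0.9868 to 0.993 with the other sham arrays, and the number of called genes is given with and without it.

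Genes were called at a Benjamini-Hochberg adjusted p below 0.05 over all 18193 genes in limma, with differences as TAC minus sham on the log2 scale. Of the 52 Wnt pathway genes, 13 were called (25%), 10 higher and 3 lower, where 25.1% of all genes were called, 12.8% higher and 12.3% lower. Without sham array 2, 14 were called (26.9%), 10 higher and 4 lower, where 27.0% of all genes were called. The share called was thus near that of all genes, and their median difference was 0.05, against -0.0038 over all genes. Groups did not overlap for 13 of the 52 genes, 11 above and 2 below sham, where 25.2% of all genes had this. At an unadjusted p below 0.05 there were 18 of the 52, against 35.8% of all genes. A mean below log2 5, called dim here, was found for 12 of the 52 genes. Of these 12, 1 was called (8.33%), against 4.92% of all dim genes, and of the 40 others 12 (30%), against 29.9% of all such genes. The nearest genes to that line were Wnt2b at 4.92 and Wnt16 at 4.99 below it, and Wnt8b at 5.21 and Rspo2 at 5.30 above it.

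**Figure D1:**
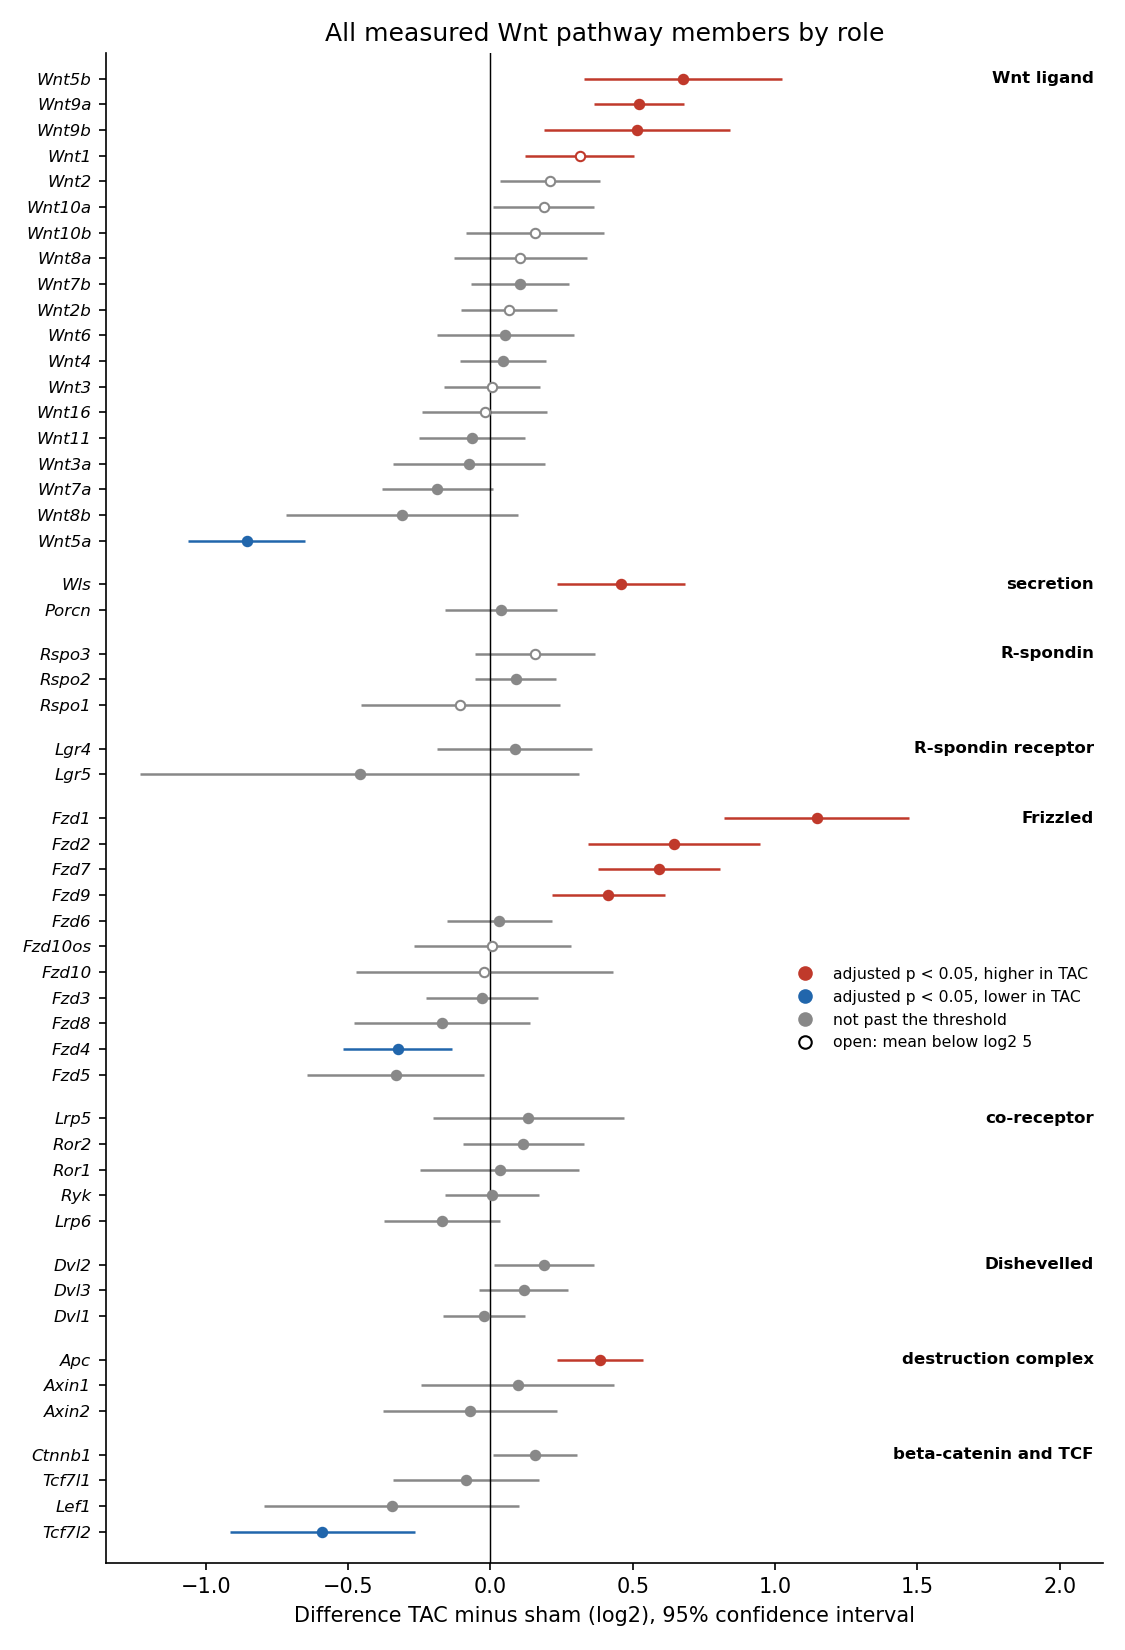
Differences between TAC and sham (log2, horizontal axis) for all 52 measured genes, grouped by role, with 95% confidence intervals from limma as bars. Filled points have a mean of log2 5 or more. 10 genes were higher and 3 lower at an adjusted p below 0.05, and the called genes lie in 5 of the 9 roles.

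Among the receptors, 5 of the 11 genes with the Frizzled prefix were called (45.5%), 4 higher and 1 lower. Over all genes 25.1% were called, and differences between roles were not tested. Fzd1, Fzd2 and Fzd7, which are close relatives in sequence, were all higher in TAC ventricles, and so was Fzd9. Fzd4, known in the vessels of the retina as the receptor of norrin, was lower. Fzd1 read 9.76, 9.87, 9.98 and 9.30 in the 4 TAC arrays, against 8.78, 8.63, 8.75, 8.46 and 8.29 in the 5 sham arrays. All TAC values lay above all sham values, and the difference was 1.15 (SE 0.15, 2.21-fold, adjusted p = 0.00031), the most positive among the 52 genes.

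Promoter sequences are shown for the 4 called Frizzled genes that have an entry, of which 3 rose and 1 fell, as the 250 bases before the annotated start in RefSeq on GRCm38.p6. Fzd1 lies at chr5:4758217-4758466 (minus strand), Fzd7 at chr1:59481897-59482146 (plus strand), Fzd9 at chr5:135251048-135251297 (minus strand) and Fzd4 at chr7:89404116-89404365 (plus strand). Capitals mark matches to 2 motifs, each searched on both strands and not overlapping the other in these windows. The GC box was read as GGGCGG, and the TCF/LEF letters as ATCAAAG, its variant TTCAAAG, a further variant AACAAAG, or lastly TACAAAG. The Fzd1 window held no match to either, the Fzd7 window 6 GC boxes and 1 TCF/LEF match whose first base lies 130 bases before the start, the Fzd9 window 1 GC box and the Fzd4 window 7.
Fzd1: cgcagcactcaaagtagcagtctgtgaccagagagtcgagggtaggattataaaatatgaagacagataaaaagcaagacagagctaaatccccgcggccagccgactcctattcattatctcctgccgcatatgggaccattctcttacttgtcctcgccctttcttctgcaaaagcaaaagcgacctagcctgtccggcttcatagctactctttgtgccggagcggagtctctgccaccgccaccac
Fzd7: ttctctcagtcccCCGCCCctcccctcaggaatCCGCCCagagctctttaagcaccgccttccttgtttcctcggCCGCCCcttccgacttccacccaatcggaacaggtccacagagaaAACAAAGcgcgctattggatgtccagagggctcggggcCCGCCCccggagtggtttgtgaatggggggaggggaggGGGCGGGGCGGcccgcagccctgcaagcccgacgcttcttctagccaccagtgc
Fzd9: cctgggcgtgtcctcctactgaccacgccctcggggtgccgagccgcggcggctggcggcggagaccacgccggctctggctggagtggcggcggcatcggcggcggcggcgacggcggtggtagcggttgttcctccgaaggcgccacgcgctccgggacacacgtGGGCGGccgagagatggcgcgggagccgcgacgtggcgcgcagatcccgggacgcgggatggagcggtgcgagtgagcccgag
Fzd4: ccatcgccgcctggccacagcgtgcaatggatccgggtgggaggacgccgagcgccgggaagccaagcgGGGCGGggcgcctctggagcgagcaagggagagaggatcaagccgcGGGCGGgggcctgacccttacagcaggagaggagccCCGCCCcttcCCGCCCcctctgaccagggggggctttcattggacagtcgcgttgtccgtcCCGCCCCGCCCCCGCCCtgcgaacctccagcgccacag

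Fzd2 read 9.25, 9.0, 8.78 and 8.61 in TAC arrays, against 8.09, 8.57, 8.20, 8.26 and 8.21 in sham arrays. Its lowest TAC value, 8.61, sat just above its highest sham value of 8.57, so the groups did not overlap, and the difference was 0.64 (SE 0.14, adjusted p = 0.00619). Fzd7 read 9.71, 9.49, 9.71 and 9.40 in TAC arrays, against 8.83, 9.21, 9.01, 8.92 and 8.96 in sham arrays. All 4 TAC values were above the sham range, for a difference of 0.59 (SE 0.10, adjusted p = 0.00139). Fzd9, known from bone and brain, read 6.89, 6.77, 6.57 and 6.87 in TAC arrays, against 6.38, 6.22, 6.38, 6.53 and 6.29 in sham arrays. Here too the groups stood apart, with a smaller difference of 0.41 (SE 0.09, adjusted p = 0.00694). Fzd4 read 10.48, 10.50, 10.60 and 10.85 in TAC arrays, against 11.01, 10.91, 10.81, 10.97 and 10.98 in sham arrays. TAC array 4 overlapped the sham range, and the difference of -0.33 (SE 0.09, adjusted p = 0.0190) passed the threshold. It no longer passed without TAC array 1 (adjusted p = 0.0627), TAC array 2 (0.0614) or TAC array 3 (0.0507). Levels of different probe sets are not compared as amounts of RNA, since each has its own probes.

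The other 6 genes with the Frizzled prefix did not pass, with differences of -0.33 to 0.03. Fzd5 was at the low end, with -0.33 (SE 0.14, adjusted p = 0.114) and groups that overlapped. Fzd8 had a difference of -0.17, and was called lower (-0.29, adjusted p = 0.0283) once sham array 2, at 6.32 the lowest sham value, was left out. Fzd3 had -0.03 on its brightest probe set, though 1 of its 6 probe sets passed in the fit over probe sets (-0.33, adjusted p = 0.0283). Fzd6 had a difference of 0.03, and Fzd10 and Fzd10os, both dim, had -0.02 and 0.01.

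**Figure D2:**
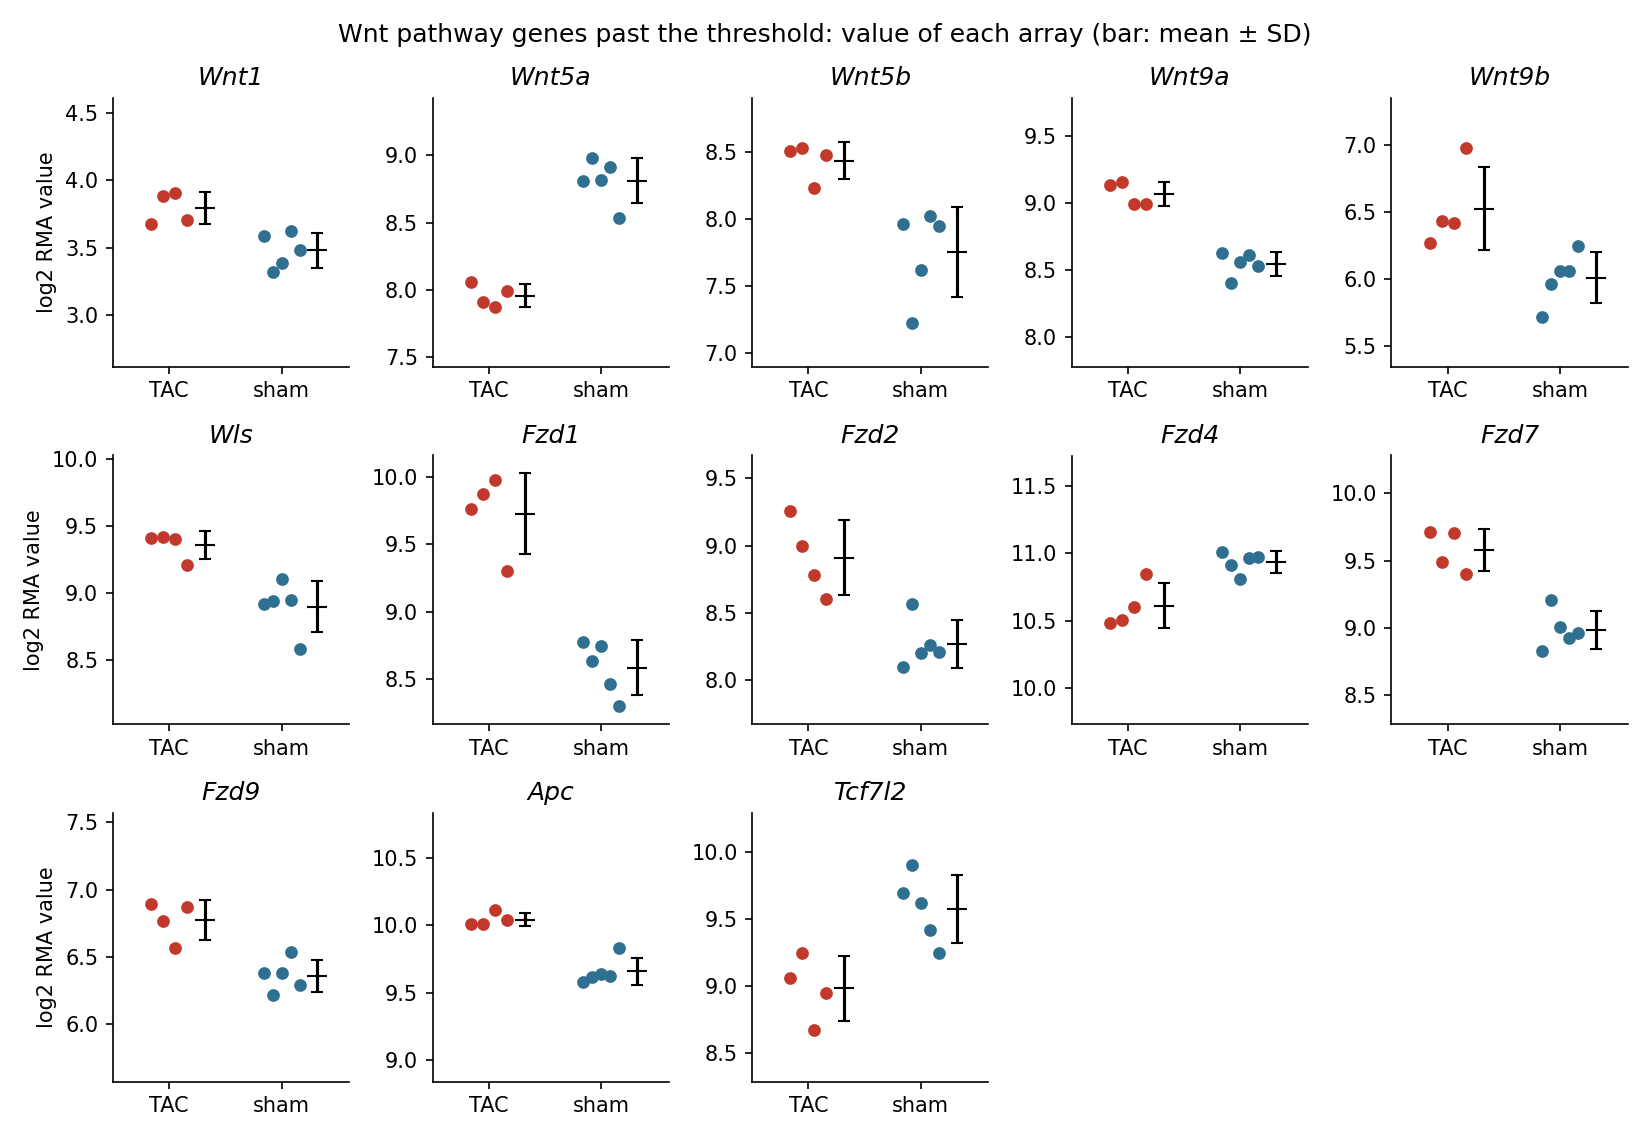
Log2 RMA value (vertical axis) of each array for the 13 called genes, with TAC left of sham in each panel and the mean ± SD beside the points. In 12 of the 13 panels no TAC point lies within the sham range, and in Fzd4 TAC array 4 does.

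Among 19 Wnt ligands, 5 were called, 4 higher and 1 lower (26.3%), near the 25.1% of all genes. Wnt5a, a ligand known for signalling without beta-catenin, was the gene with the most negative difference among the 52. It read 8.05, 7.91, 7.87 and 7.99 in TAC arrays, against 8.81, 8.98, 8.82, 8.91 and 8.54 in sham arrays. No value overlapped, and the difference was -0.86 (SE 0.09, adjusted p = 0.000107), which is a level 1.81-fold lower. Wnt5b, its closest relative, went the opposite way. It read 8.50, 8.53, 8.23 and 8.47 in TAC arrays, against 7.96, 7.23, 7.62, 8.02 and 7.95 in sham arrays. All TAC values were above all sham values, and the difference was 0.68 (SE 0.16, adjusted p = 0.00987). Both of its probe sets rose, by 0.68 and 0.60. The promoter of Wnt5b at the start farthest downstream, chr6:119449387-119449636 on the minus strand of GRCm38.p6, is shown as a further window with TCF/LEF letters, whose first base lies 71 bases before the start, beside 2 GC boxes. The windows at the other starts of Wnt5b held no TCF/LEF letters.
Wnt5b: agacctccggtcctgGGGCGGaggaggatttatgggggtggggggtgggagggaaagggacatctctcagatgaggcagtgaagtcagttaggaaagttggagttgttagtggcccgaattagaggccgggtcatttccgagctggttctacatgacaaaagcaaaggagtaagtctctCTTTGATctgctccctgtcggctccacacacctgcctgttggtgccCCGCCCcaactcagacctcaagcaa

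Wnt9a, known from valve and joint development, read 9.14, 9.16, 8.99 and 8.99 in TAC arrays, against 8.63, 8.40, 8.56, 8.61 and 8.53 in sham arrays. The groups were clearly apart, and the difference was 0.52 (SE 0.07, adjusted p = 0.000464). Wnt9b, known from kidney development, read 6.27, 6.43, 6.42 and 6.97 in TAC arrays, against 5.72, 5.97, 6.06, 6.06 and 6.24 in sham arrays. TAC array 4 was the highest and the gap to sham was narrow, with a difference of 0.51 (SE 0.15, adjusted p = 0.0273). The call was lost without TAC array 3 (adjusted p = 0.0503) or sham array 1 (0.0528). Wnt1, the founding vertebrate member, was dim, at 3.68, 3.88, 3.91 and 3.70 in TAC arrays against 3.59, 3.32, 3.39, 3.62 and 3.48 in sham arrays. Its difference of 0.31 (SE 0.09, adjusted p = 0.0226) was lost without TAC array 2 (0.0696), TAC array 3 (0.0739) or sham array 3 (0.0546).

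The 14 ligands that did not pass had differences of -0.31 to 0.21. Wnt2 (dim) had 0.21 (adjusted p = 0.0796) and TAC values above all sham values. Wnt11, a ligand of heart development, had -0.06 (SE 0.08, 95% confidence interval -0.25 to 0.12), and Wnt4 had 0.04 (SE 0.07). Wnt7a had -0.19 (SE 0.09, adjusted p = 0.156). Several Wnt genes are neighbours in the RefSeq gene order, and in 3 of the 4 pairs of neighbours, all but Wnt6 and Wnt10a, 1 gene was called and the other was not. Wnt9a was called beside Wnt3a (-0.08, adjusted p = 0.708), Wnt9b beside Wnt3 (0.01, adjusted p = 0.971) and Wnt1 beside Wnt10b (0.16, adjusted p = 0.349). Of these genes, Wnt3, Wnt1 and Wnt10b were dim, and 4.92% of all dim genes were called. Over all genes 25.1% were called, and the share of such pairs among all genes was not counted. Differences between neighbours were not tested, so the count is not read as a trait of these pairs.

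Secretion of Wnts needs Porcn, which attaches the lipid, and Wls, the carrier that takes them to the surface. Wls read 9.41, 9.41, 9.40 and 9.21 in TAC arrays, against 8.92, 8.94, 9.10, 8.94 and 8.58 in sham arrays. The groups did not overlap, and the difference was 0.46 (SE 0.10, adjusted p = 0.00772). Porcn had 0.04 (SE 0.09, adjusted p = 0.813).

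In limma, 0 of the 10 co-receptor, R-spondin and R-spondin receptor genes were called, and 0 of the 3 Dishevelled genes. With groups this small, the counts are not read against the 25.1% called over all genes. Of these 13, 1 had an unadjusted p below 0.05, Dvl2, and 0 were called with array weights. Lrp6, the co-receptor of the beta-catenin branch, had -0.17 (95% confidence interval -0.37 to 0.04, adjusted p = 0.220), and Lrp5 had 0.13 (-0.20 to 0.47). Ror1, Ror2 and Ryk, receptors of the Wnt5a-type branches, had 0.03, 0.12 and 0.01. The R-spondins, secreted amplifiers of Wnt signals, had 0.16 for Rspo3, 0.09 for Rspo2 and -0.11 for Rspo1, the first and last of them dim. Their receptors had 0.08 for Lgr4 and -0.46 for Lgr5 (SE 0.35), where sham array 2 was the highest at 7.48. The Dishevelled genes Dvl1, Dvl2 and Dvl3 had -0.02, 0.19 and 0.12, and Dvl2 had an adjusted p of 0.112.

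Apc, a scaffold of the destruction complex, read 10.01, 10.01, 10.11 and 10.04 in TAC arrays, against 9.58, 9.62, 9.64, 9.62 and 9.83 in sham arrays. Sham array 5 was nearest to the TAC arrays without reaching them, and the difference was 0.38 (SE 0.07, adjusted p = 0.00225). Axin1 had 0.10 (adjusted p = 0.712). Axin2, a target gene of the branch as well as a scaffold, read 6.63, 6.78, 6.57 and 6.82 in TAC arrays, against 7.22, 6.54, 6.70, 6.87 and 6.53 in sham arrays. The groups overlapped, and the difference was -0.07 (95% confidence interval -0.38 to 0.23, adjusted p = 0.763).

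Ctnnb1, the gene of beta-catenin, read 13.43, 13.59, 13.66 and 13.50 in TAC arrays, against 13.34, 13.48, 13.40, 13.34 and 13.39 in sham arrays. The groups overlapped at TAC array 1, and the difference of 0.16 (SE 0.07) did not pass (adjusted p = 0.120). All 3 of its probe sets had positive differences, 0.16, 0.32 and 0.37, and none passed. Among the nuclear factors, Tcf7l2, the TCF factor also known as TCF4, read 9.06, 9.25, 8.68 and 8.95 in TAC arrays, against 9.69, 9.90, 9.62, 9.42 and 9.25 in sham arrays. TAC array 2 and sham array 5 nearly met, and the difference was -0.59 (SE 0.15, 1.51-fold lower, adjusted p = 0.0137). Lef1 had -0.35 (SE 0.20, adjusted p = 0.254), where sham array 2 was the highest at 8.07, and Tcf7l1 had -0.09 (SE 0.12).

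**Figure D3:**
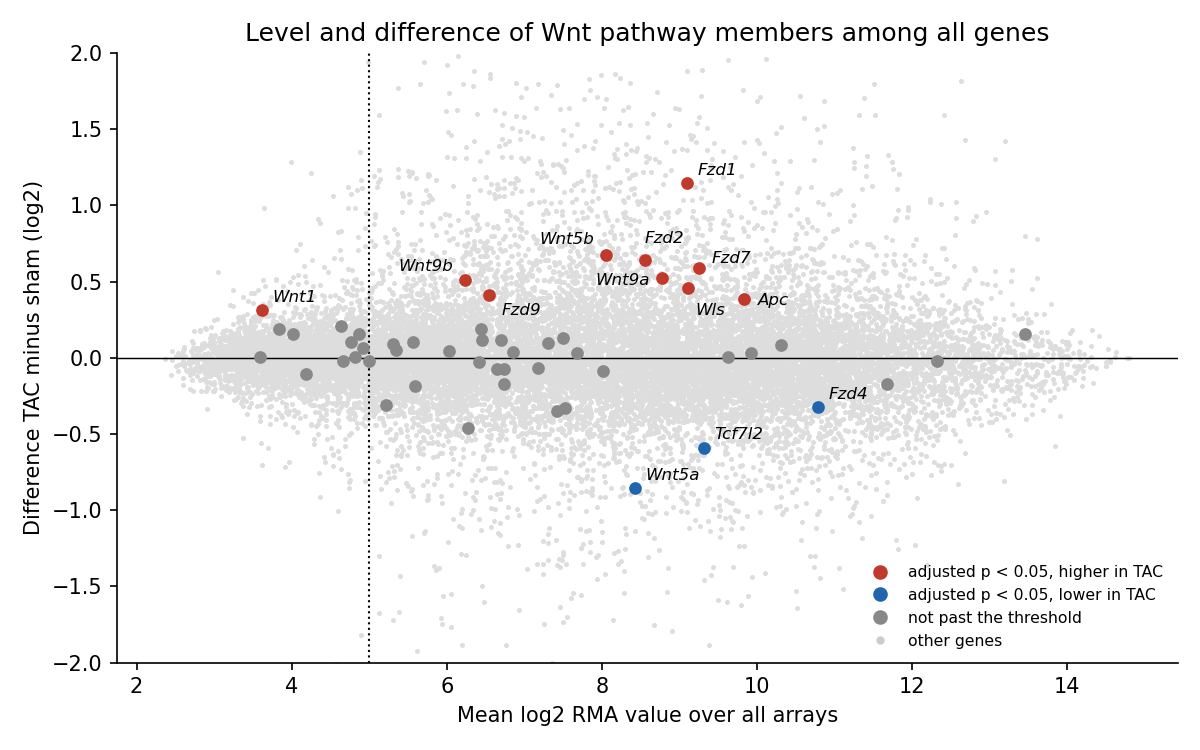
Difference TAC minus sham (log2, vertical axis) against the mean log2 RMA value over 9 arrays (horizontal axis), with the Wnt pathway genes coloured over all other genes in grey; the dotted line is log2 5, and 97 genes lie beyond the vertical axis limit of 2. Called genes had means from 3.62 (Wnt1) to 10.79 (Fzd4), and the brightest gene, Ctnnb1 at 13.46, was not called. Of the called genes, Wnt1 alone lies to the left of the line.

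Genes with several probe sets allowed the direction to be read more than once. All 4 probe sets of Wnt5a were negative, from -0.42 to -0.86, and 3 passed over all probe sets. All 4 of Tcf7l2 were negative, from -0.31 to -0.59, and 2 passed. All 4 of Apc and all 4 of Wls were positive, and 2 of each passed. For Fzd2, 2 of 3 passed, all 3 being positive. Fzd4 was negative in all 3, of which 1 passed, and Fzd1, Wnt9a and Wnt9b were positive in both, of which 1 passed. The second probe sets of Fzd1 and Wnt9a were dim, and so were the lowest ones of Fzd4, Wls and Wnt5a. Fzd7 had a second, dim probe set at -0.02 that did not pass. Over all 109 probe sets, 21 passed (19.3%, 14 higher and 7 lower), against 20.8% of all probe sets.

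**Figure D4:**
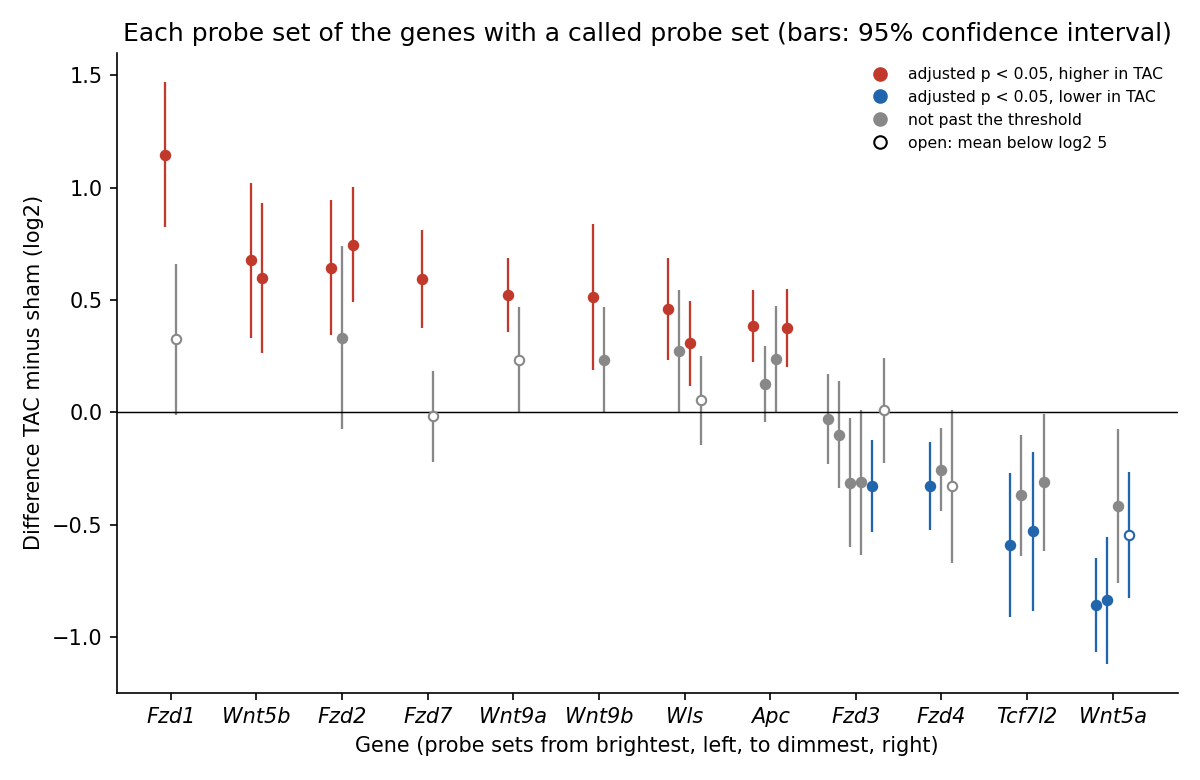
Difference TAC minus sham (log2) of each probe set of the genes that had several probe sets and at least 1 called, from the brightest to the dimmest, with 95% confidence intervals. The 4 probe sets of Wnt5a lie between -0.42 and -0.86 and the 4 of Tcf7l2 between -0.31 and -0.59, while those of Apc and Wls lie above zero.

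Of the 52 genes, 35 had a promoter entry in the RefSeq table used, in 43 windows of 250 bases, and Wnt5a and Fzd2 were among those without an entry. TCF/LEF letters were found in 5 of the 43 windows (11.6%), against 11.9% of 18109 windows of all genes tested, in Fzd7, Lef1, Tcf7l2, Wnt11 and Wnt5b. Of those 5 genes, Fzd7 and Wnt5b were higher and Tcf7l2 was lower, while Lef1 and Wnt11 did not pass. Lef1, Tcf7l2, Wnt11 and Wnt5b also had windows at other starts without these letters. GC boxes were found in 33 of 43 windows (76.7%), against 48.3%, and the median GC content of the windows was 69.2%, against 57.6%. A match describes letters and no more.

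Genes of the pathway outside the 52 were counted by list, here and below. Over all genes 25.1% were called, 12.8% higher and 12.3% lower. The lists were chosen with earlier results of these data known, and no share was tested against that of all genes. Of 14 targets and feedback genes, 6 were higher and 2 lower (57.1% called), with a median of 0.36. Ccn4, a matricellular gene known as a Wnt target, averaged 7.33 in TAC arrays and 5.54 in sham arrays, a difference of 1.78 (SE 0.14, adjusted p = 1.89e-05). Nkd2, an inhibitor that binds Dishevelled, averaged 7.84 in TAC arrays and 5.44 in sham arrays, a difference of 2.40 (SE 0.20, adjusted p = 2.05e-05). Cd44, a hyaluronan receptor, and Apcdd1, a membrane inhibitor of Wnt, were higher by 1.05 and 1.01. Bambi (0.88) and Myc (1.22) completed the higher ones, the call of Myc being lost without TAC array 1, TAC array 3 or sham array 1 (adjusted p up to 0.0862). The 2 lower genes were Tbx3 (-0.89) and Znrf3 (-0.43), which removes Frizzled from the surface. Classical feedback genes Notum (dim), Nkd1 and Sp5 had differences of 0.14, 0.13 and 0.01 and did not pass. Ccnd1 had 0.57 with TAC values above all sham values and did not pass. Its probe set of the lowest mean did, at 0.65 (adjusted p = 0.0300 over all probe sets in limma). The higher genes of this list were 5 without TAC array 1 and 7 without sham array 2. 

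Among 12 genes of beta-catenin turnover, 0 were higher and 1 was lower (8.33%), Siah1a at -0.34 (adjusted p = 0.0151), and Gsk3b had -0.11 (adjusted p = 0.257). Without sham array 2 the lower genes of this list were 2. Some probe sets other than the brightest passed in limma over all probe sets. Those of Csnk1d had 0.58 (adjusted p = 0.00470) and 0.74 (0.0183). For Fbxw11 such a probe set had 0.30 (0.0355), and for Btrc -0.43 (0.00441). Of 15 nuclear partners, 1 was higher and 5 were lower (40%), with a median of -0.10. Single arrays bore on this count, which was 2 without TAC array 3, 3 without TAC array 2 and 7 without sham array 2. Bcl9, a co-activator that binds beta-catenin, had -0.50 (SE 0.10, adjusted p = 0.00444) and Tle5 -0.33 (SE 0.08, adjusted p = 0.0150). Cby1, Bcl9l and Tle2 also fell, by 0.36, 0.38 and 0.37, and Tle3 rose by 0.33. The calls of these last 4 depended on single arrays, with the adjusted p up to 0.0657 for Cby1, 0.0708 for Bcl9l, 0.0997 for Tle2 and 0.103 for Tle3 when 1 array was left out. The other 2 probe sets of Bcl9l had 0.03 and 0.09 and did not pass. Crebbp and Ctnnbip1 were not called, but a further probe set of each passed in limma over all probe sets. These had -0.55 (adjusted p = 0.00150) and 0.36 (0.0447).

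Of 14 measured planar polarity genes of 16 listed, 1 was higher and 4 were lower (35.7%). Celsr2, an adhesion receptor, averaged 7.15 in TAC arrays and 8.42 in sham arrays, a difference of -1.27 (SE 0.10, adjusted p = 1.69e-05), and Celsr3 differed by -1.56 (SE 0.14, adjusted p = 3.74e-05). Prickle1 had -0.66, Daam2 -0.52 and Rhoa 0.28, and Celsr3 had no other probe set. The other probe set of Celsr2 had -0.07, those of Prickle1 -0.04 and -0.24, and that of Daam2 0.15, and none of these passed. Rhoa had a further probe set at 0.47, which passed, and 1 at -0.24, which did not. Of 11 measured surface partners of 12 listed, 6 were higher and 1 lower (63.6%). Without TAC array 1 or TAC array 3, 5 genes of this list were called. The higher calls of Gpc4 (0.30) and Adgra2 (0.69) depended on single TAC arrays. Their adjusted p rose up to 0.0572 and 0.0638 when 1 array was left out. Gpc6, a glypican, was higher by 1.04, Reck by 0.86 and Kremen1 by 0.61. Lgr6, a relative of Lgr4 and Lgr5, averaged 8.91 in TAC arrays and 10.03 in sham arrays, a difference of -1.12 (SE 0.11, adjusted p = 4.45e-05). Of 16 secreted antagonists, 4 were higher and 2 were lower (37.5% called). The higher ones were Dkk3 by 3.07, Frzb by 2.71, Sfrp2 by 2.18 and Sfrp1 by 1.96. The lower ones were Wif1 at -0.68 and Sfrp5 at -0.38. Sfrp5 no longer passed without TAC array 2 or TAC array 3 (adjusted p up to 0.0563), and its other, dim probe set had 0.19 (adjusted p = 0.0628 over all probe sets), with TAC values above all sham values.

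**Figure D5:**
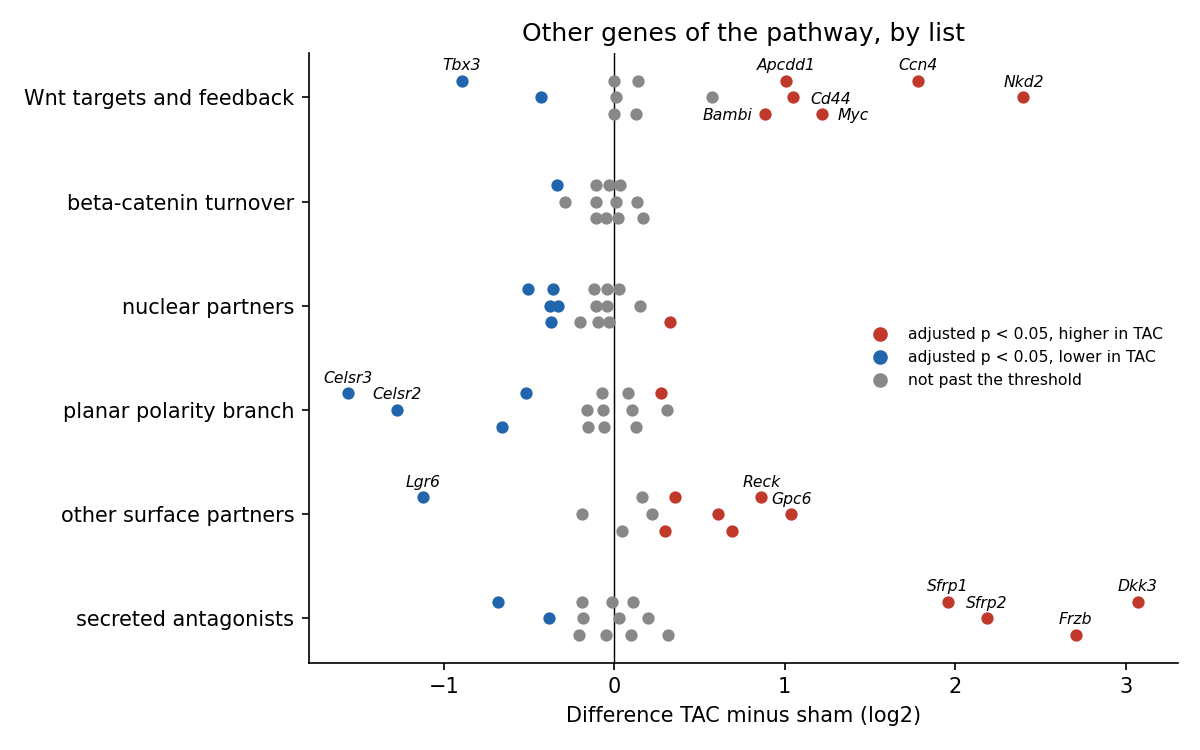
Difference TAC minus sham (log2, horizontal axis) of the other genes of the pathway, 1 point per gene, by list, with genes beyond 0.8 named when called. Nkd2 and Ccn4 lie at 2.40 and 1.78 among the targets, Celsr3 and Celsr2 at -1.56 and -1.27 in the planar polarity list, and Lgr6 at -1.12. The highest point is Dkk3 at 3.07, among the secreted antagonists.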

How the data were processed

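Left ventricular RNA was hybridized to Affymetrix arrays, 4 for TAC and 5 for sham. The authors deposited log2 values, and RMA is the tool that the submitters' processing notes name, without a version. This method subtracts background, forces a common distribution on the arrays and summarises probes. Once sorted, the values of all 9 arrays were identical (minimum 2.2511, median 6.5661, maximum 14.799), and a general change in RNA would therefore not show. Which processing step made the sorted values identical was not examined. The software and genome build are not given in the sources used here, and the number of arrays limits the precision.

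Of 45101 probe sets, 34945 had 1 gene symbol in the platform annotation, 932 had several, 64 were controls and 9160 were not listed. Each of 18193 genes was represented by its probe set with the highest mean over 9 arrays. Groups were taken from the labels. The fit used lmFit and eBayes of limma 3.58.1 (R 4.3.3), two-sided and without covariates, and had 7 residual and 3.27 prior degrees of freedom. Adjusted p-values cover all genes, or all probe sets for single probe sets. Python 3.11.15, pandas 2.3.3, numpy 2.4.6 and matplotlib 3.10.9 made tables and figures. The fit was tested on simulated data.

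Every gene of the pathway could be named, and of each other list up to 4 called genes with the smallest p. Genes named beyond that were chosen after their values were seen. The members and lists were chosen with earlier results of these data known. The alternatives were the mean of probe sets, all probe sets, filters on dim genes, a variance trend, array weights, centring, cyclic loess, stricter thresholds and leaving out each array. Sequences and neighbouring genes come from RefSeq tables on GRCm38.p6.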

Additional observations from a re-analysis of the deposited data

Results flagged for a closer look

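In 8 of 104 groups tested, where chance flags about 1 in 20, 1 array lay far from the others of its group. In the TAC arrays, Fzd6 was highest in array 4 at 10.119 (nearest 9.895) and Axin1 in array 1 at 7.451 (nearest 7.327). Wls was lowest in TAC array 4 at 9.205 (nearest 9.405), and Wnt5b and Wnt6 in TAC array 3 at 8.229 (nearest 8.475) and 5.273 (nearest 5.398). In the sham arrays, Fzd8 and Wnt2b were lowest in array 2 at 6.319 (nearest 6.814) and 4.748 (nearest 4.910), and Apc was highest in array 5 at 9.828 (nearest 9.638). Wls, Wnt5b and Apc stayed past the threshold with each of the 9 arrays left out in turn.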

How the results depend on the processing

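Of 942 values of the 52 genes under alternatives, 5 passed newly, 19 no longer passed and 918 stayed on their side of the threshold. In 46 of these values, of 15 genes, the sign turned, and each was a small difference that passed on neither side. Over all probe sets the calls were 7273 (3856 higher, 3417 lower), with 21 probe sets of the pathway, 7 of them lower. At an adjusted p below 0.01, 2608 genes were called (14.3%, 1356 higher, 1252 lower), and 9 of the pathway (17.3%), 1 of them lower. With at least 1.5-fold, 1623 were called (8.92%, 981 higher, 642 lower), and 6 of the pathway (11.5%), 4 of them higher. Fewer calls follow from the stricter thresholds themselves. Leaving out 1 array gave 10 to 14 genes of the pathway (8 to 10 higher, 2 to 4 lower) and 3375 to 4915 of all genes (1770 to 2386 higher, 1605 to 2529 lower). These were 19.2% to 26.9% of the pathway genes, against 18.6% to 27.0% of all genes. After centring on the median, all genes split into 1978 higher and 2908 lower, against 2333 and 2233, with the median difference at -0.055, while the pathway kept 10 higher and 3 lower. With array weights 16 were called (30.8%, against 32.7% of all genes), adding Ctnnb1 (adjusted p = 0.0388), Wnt2 (0.0353) and Wnt7a (0.0297), and with a variance trend 14 (26.9%, against 27.5%), adding Ctnnb1 (0.0255). Leaving out _x_at and _s_at probe sets, chosen after seeing the data, gave 13 (25.0%, against 24.5% of all genes). Among genes brighter than the median gene, 10 of 18 of the pathway were called (55.6%), against 45.3% of all such genes. Among the listed genes, the sign turned in 61 values of 22 genes, in 4 of them with a call on either side: Csnk1d (0.34 as the mean of probe sets, 0.58 without those probe sets), Tnks (0.21 as the mean) and Daam2 (0.15 without those probe sets), and the cause was not tested. No paired analysis was possible because the labels pair no samples and the numbering of arrays only follows their listing. Signal near background limits the 12 dim genes.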
